A study of Mus musculus with 2 samples.

Results

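The 9 genes described here encode the oxygen-sensing hydroxylases and the subunits of the hypoxia-inducible factors (HIFs): Egln1, Egln2, Egln3 and Hif1an, then Hif1a, Epas1 and Hif3a, and last Arnt and Vhl. They were chosen by name from 32285 counted genes, with no measured value used in the choice, and each had UMIs in both libraries.

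Egln1, Egln2 and Egln3 encode PHD2, PHD1 and PHD3, prolyl hydroxylases that use molecular oxygen and 2-oxoglutarate to modify the alpha subunits of HIF. The product of Vhl, the recognition subunit of a ubiquitin ligase, binds the hydroxylated alpha subunit and sends it to degradation, while FIH, encoded by Hif1an, hydroxylates an asparagine that is needed to bind coactivators. When oxygen is low, HIF-1α (Hif1a) and HIF-2α (Epas1) escape this control, pair with ARNT and bind DNA. Egln1 and Egln3 are themselves known HIF targets. In the kidney, HIF-2α is known mainly from endothelial and interstitial cells and HIF-1α mainly from tubular epithelium. Most of this control acts on protein, which RNA counts do not measure.

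Both libraries came from kidney of mice, taken on day 14 after ischaemia and reperfusion of 1 kidney. The control mice were labelled Cre-, and the others, labelled Cdh5-CreERT2; Phd3f/+ and called haplodeficient here, carried 1 floxed copy of Phd3 (Egln3) and a Cre driven by the promoter of the endothelial cadherin gene Cdh5 and active after tamoxifen. Mice of both groups received 4 tamoxifen injections after the injury, and both libraries carry the label batch 1. Whether the Cre- mice also carried the floxed copy, which exon is floxed, and how many mice went into a library were not given in the sources used here. With 1 library per group there was no test between groups, and every interval in parentheses is a 95% interval for counting error only. How many of all genes had a ratio interval on 1 side of 1 was not counted, so counts of such intervals below have no background. Counting took transcripts at their 3′ end, so the Egln3 count does not check whether a floxed exon was removed.

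The control library held 134190236 unique molecular identifiers (UMIs, counted transcripts), and 8737 cells were retained at a median of 8762 UMIs. The haplodeficient library held 114668145 UMIs and 9222 cells at a median of 5471.5 UMIs. Mitochondrial genes took a median of 10.2% and 2.69% of a cell's UMIs. The libraries shared 23 cell barcodes, 0.263% of control and 0.249% of haplodeficient cells. Clusters were named from marker genes that did not include the 9 genes, which gave 12 named classes and 4 unnamed clusters with at least 100 cells in each library, 16 in all. Unnamed clusters of any size held 20.6% of control and 22.2% of haplodeficient cells. Endothelial-like cells made up 362 of the control cells (4.14%) and 792 of the haplodeficient cells (8.59%), and all 13 endothelial markers were detected in both, at a summed 8900 and 9650 CPM, the UMIs of a gene per 1000000 UMIs of that class and library. Of other cell types' markers, the summed descending thin limb list stood at 1370 and 648 CPM in these cells, with its highest marker at 1150 and 504 CPM. The B-cell list was at 1240 and 923 CPM, with its highest marker at 1230 and 909 CPM. The podocyte list was at 1120 and 1250 CPM and the macrophage list at 578 and 653 CPM. The proximal tubule list was at 413 and 20.3 CPM, with 0 of 12 markers higher in the haplodeficient library. The part of these other markers in the endothelial values below was not tested.

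The regions upstream of Egln1 and Egln3 are shown because both genes are known HIF targets and yet their transcripts had very different distributions over the cell types below. The core letters of the hypoxia response element, ACGTG and GCGTG, were searched on both strands from 250 bases before to 50 bases after the RefSeq start site (GRCm38.p6), and overlapping matches were counted separately, so that CACGTG counts as 2. Capitals mark the matches in the 250 bases before the start, printed 5′ to 3′ on the strand of the gene. The Egln1 region is chr8:124949255-124949504 and the Egln3 region is chr12:54203875-54204124, both on the minus strand.
Egln1: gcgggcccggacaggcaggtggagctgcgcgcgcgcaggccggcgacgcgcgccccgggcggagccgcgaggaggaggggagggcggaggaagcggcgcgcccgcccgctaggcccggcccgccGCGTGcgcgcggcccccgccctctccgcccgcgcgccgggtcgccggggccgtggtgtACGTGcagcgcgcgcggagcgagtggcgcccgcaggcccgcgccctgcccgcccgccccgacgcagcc
Egln3: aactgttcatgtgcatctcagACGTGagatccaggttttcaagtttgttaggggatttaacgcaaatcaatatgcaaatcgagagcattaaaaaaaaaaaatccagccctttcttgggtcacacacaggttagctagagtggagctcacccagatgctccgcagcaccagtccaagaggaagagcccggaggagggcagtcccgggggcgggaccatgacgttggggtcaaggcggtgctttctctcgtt
Egln1 held 2 matches, 126 and 68 bases before its start, and Egln3 held 1, 229 bases before. The promoter table matched 8 of the 9 genes, and Epas1 was not matched. Of the other genes, Egln2 had 6 matches at 1 of its start sites and 1 at the other, Hif1a had 3, Hif3a had 2, Arnt had 1, and Vhl and Hif1an had 0. A match was present in 43.8% of 32851 promoters of this length, so its presence is a description and not a sign of a working site.

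Across the 16 classes the genes fell into 2 kinds of pattern. Epas1 and Egln3 were concentrated in a few cell types, and Egln1, Egln2, Arnt, Vhl and Hif1an were spread over all of them. Hif1a was present in every class at levels that differed several-fold, and Hif3a was nearly absent. Levels over the classes were alike between libraries to a different degree for each gene. Pearson correlations between the control and haplodeficient libraries were taken over the 16 classes on log2(CPM + 5). They were 0.986 for Epas1, 0.927 for Egln3 and Hif1a, 0.835 for Egln1 and 0.797 for Arnt. Those of Egln2 and Hif1an were 0.672, and that of Vhl was 0.173. Spearman correlations, which use only the order of classes, were 0.959 for Epas1, 0.926 for Hif1a and 0.876 for Egln1. They were 0.781 for Egln3, 0.75 for Arnt, 0.615 for Hif1an, 0.538 for Egln2 and 0.153 for Vhl. Hif3a, with few UMIs, had 0.503 by Pearson and 0.163 by Spearman. These are descriptions, and the classes of 1 library share its depth and free RNA. Levels are compared between cell types within a gene and not between genes.

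**Figure D1:**
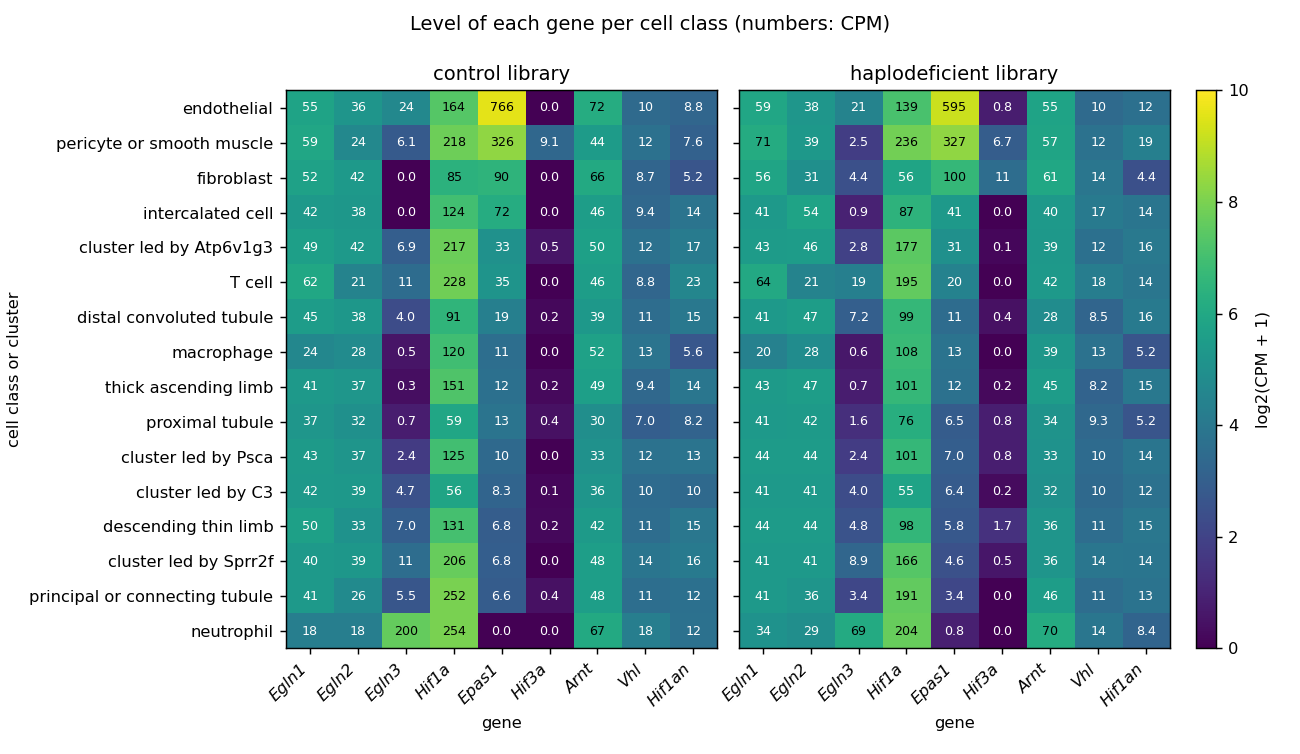
Level of the 9 genes (columns) in 16 cell classes and clusters (rows) in the control library (left) and the haplodeficient library (right); numbers are CPM and colour is log2(CPM + 1). Epas1 peaks in the endothelial row at 767 and 595 CPM and Egln3 in the neutrophil row at 199.9 and 69.0 CPM, while the columns of Egln1, Egln2 and Arnt vary little.

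Egln3 (chr12:54178981-54203860, minus strand) encodes PHD3, the enzyme targeted in the haplodeficient mice. In endothelial-like cells it stood at 24.2 CPM (18.4 to 31.3, 58 UMIs) in control and 21.0 CPM (17.3 to 25.4, 110 UMIs) in haplodeficient cells. The ratio of haplodeficient over control was 0.868 (0.626 to 1.21), so a difference in the targeted gene was not detectable in its target cell type at this depth. This value weights deep cells most. With every cell thinned to 1000 UMIs, 10 of 335 control and 10 of 758 haplodeficient cells had an Egln3 UMI, which is 2.99% (1.44 to 5.42) and 1.32% (0.634 to 2.41), and the ratio of thinned levels was 0.486. Thinning to 2000 UMIs gave 5.99% (3.53 to 9.41) and 4.04% (2.68 to 5.83), again with intervals that overlap. Unthinned, 46 control and 74 haplodeficient endothelial-like cells had a UMI. Thick ascending limb-like cells, in place 15 of the 16 classes by mean Egln3 level, gave 0 of 554 and 1 of 557 at 1000 UMIs. As a class that is low by these same counts, they are not an independent background. Free RNA was estimated to supply 0.324% and 0.824% of endothelial Egln3 UMIs.

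The endothelial subtypes did not share 1 level of Egln3. Peritubular capillary-like cells, the exchange vessels around the tubules, had the highest, 70.8 CPM (43.3 to 109, 20 UMIs) in 85 control cells and 37.8 CPM (27.9 to 50.1, 48 UMIs) in 272 haplodeficient cells. Their ratio of 0.534 (0.311 to 0.95) was past the 1.5-fold rule, which compares log2(CPM + 5) and which 9.8% of eligible genes met in the lower direction in this subtype (21.6% in either). Descending vasa recta-like cells, the vessels that carry blood into the medulla, had 23.3 CPM (13 to 38.4, 15 UMIs) and 10.5 CPM (5.22 to 18.7, 11 UMIs), a ratio of 0.449 (0.187 to 1.05). A Calca-led endothelial cluster had 31.0 and 19.1 CPM, with a ratio of 0.616 (0.259 to 1.48).

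Glomerular-like and arterial-like endothelial cells pointed the other way on few counts. The glomerular-like cells had 12.5 CPM (2.57 to 36.5, 3 UMIs) and 17.0 CPM (9.03 to 29.0, 13 UMIs), and the arterial-like cells 3.93 CPM (2 UMIs) and 5.05 CPM (3 UMIs). A Magi2-led endothelial subcluster of 13 and 28 very deep cells had 1 control and 18 haplodeficient Egln3 UMIs, which lay in 1 and 5 cells. Leaving this subcluster out moved the endothelial ratio to 0.770, and giving all subclusters equal weight moved it to 0.719. A separate unnamed cluster with endothelial and pericyte genes, led by Tm4sf1 and holding 43 control and 71 haplodeficient cells, had 25.4 CPM (15.3 to 39.7, 19 UMIs) and 10.5 CPM (5.86 to 17.3, 15 UMIs), a ratio of 0.412 (0.195 to 0.855). Ratios of Egln3 were therefore below 1 in capillary, vasa recta and Calca-led cells and above 1 in the other 2 compared subtypes, and whether the subtypes differed from each other was not tested.

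Outside the endothelium, the highest Egln3 level was in neutrophil-like cells. These had 199.9 CPM (138 to 281) in the control, from 33 UMIs in 20 of 103 cells, and 69.0 CPM (54.9 to 85.6) in the haplodeficient library, from 82 UMIs in 54 of 618 cells. The intervals do not overlap within a library with those of endothelial-like cells, the next class in order, so neutrophil-like cells stood above them in both. The haplodeficient over control ratio was 0.345 (0.228 to 0.534), and thinned to 1000 UMIs the share of cells with a UMI was 15.6% (9.02 to 24.5) of 96 and 4.55% (2.99 to 6.59) of 572. In neutrophil-like cells 32.9% of eligible genes were past the 1.5-fold rule in either direction and 14.3% were lower, the widest such background of the 16 classes. Median depth was 1559 and 1775 UMIs, and all 9 neutrophil markers were detected in both libraries, at a summed 57500 and 67200 CPM. In these cells the summed distal convoluted tubule list stood at 1360 and 905 CPM and the proximal tubule list at 987 and 124 CPM. The macrophage list was at 479 and 1050 CPM, and free RNA at an estimated 7.10% and 3.52% of their UMIs. The part of these other markers and of free RNA in the Egln3 difference was not tested.

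T-cell-like cells followed with 10.6 CPM (3.88 to 23.0, 6 UMIs) and 18.8 CPM (14.3 to 24.2, 60 UMIs), levels whose intervals overlap with those of endothelial-like cells in each library. The T-cell ratio of 1.77 (0.769 to 5.03) was past the 1.5-fold rule but rests on 6 control UMIs. Within T-cell-like cells of the haplodeficient library, Egln3 was at 42.6 CPM (24.4 to 69.2, 16 UMIs) in a cluster led by Il17a and Trdc, at 27.9 CPM (19.6 to 38.4, 37 UMIs) in a cluster led by Cd3g and Ctla4, and at 2.74 CPM (0.565 to 8.01, 3 UMIs) in one led by the cytotoxic genes Ccl5 and Nkg7. The first 2 thus stood above the third beyond counting error. Macrophage-like cells were near 0, with 0.496 CPM (3 UMIs) and 0.580 CPM (7 UMIs).

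Epithelial classes had Egln3 levels of 0 to 10.9 CPM. The Sprr2f-led cluster had the highest level of these in both libraries, at 10.9 (7.17 to 15.8) and 8.95 CPM (6.68 to 11.7). Descending thin limb-like cells were at 6.97 (5.00 to 9.45) and 4.82 CPM (3.49 to 6.49). An Atp6v1g3-led cluster of intercalated and principal cell genes had 6.86 (5.22 to 8.84) and 2.78 CPM (1.78 to 4.14), a ratio of 0.406 (0.241 to 0.663). Its median depth was 26665 and 33515 UMIs. Intercalated-like cells had 9041 and 9153.5 UMIs, and principal or connecting tubule-like cells 10637 and 9245. Whether this cluster held doublets was not tested. Distal convoluted tubule-like cells had 3.97 (2.57 to 5.86) and 7.20 CPM (5.10 to 9.89), a ratio of 1.81 (1.07 to 3.13). Both clusters lie under the mean of 10 CPM that was required for a call. Without mitochondrial UMIs in the totals, a scaling added after the data were seen, the distal convoluted tubule ratio was 1.68 (0.986 to 2.90), with 1 inside its interval. Summed over all cells regardless of class, Egln3 was at 3.83 CPM in control and 5.75 CPM in haplodeficient cells, a ratio of 1.5 (1.32 to 1.71), although it was below 1 in its 2 highest classes. Neutrophil-like cells made up 1.18% and 6.70% of cells and endothelial-like cells 4.14% and 8.59%.

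**Figure D2:**
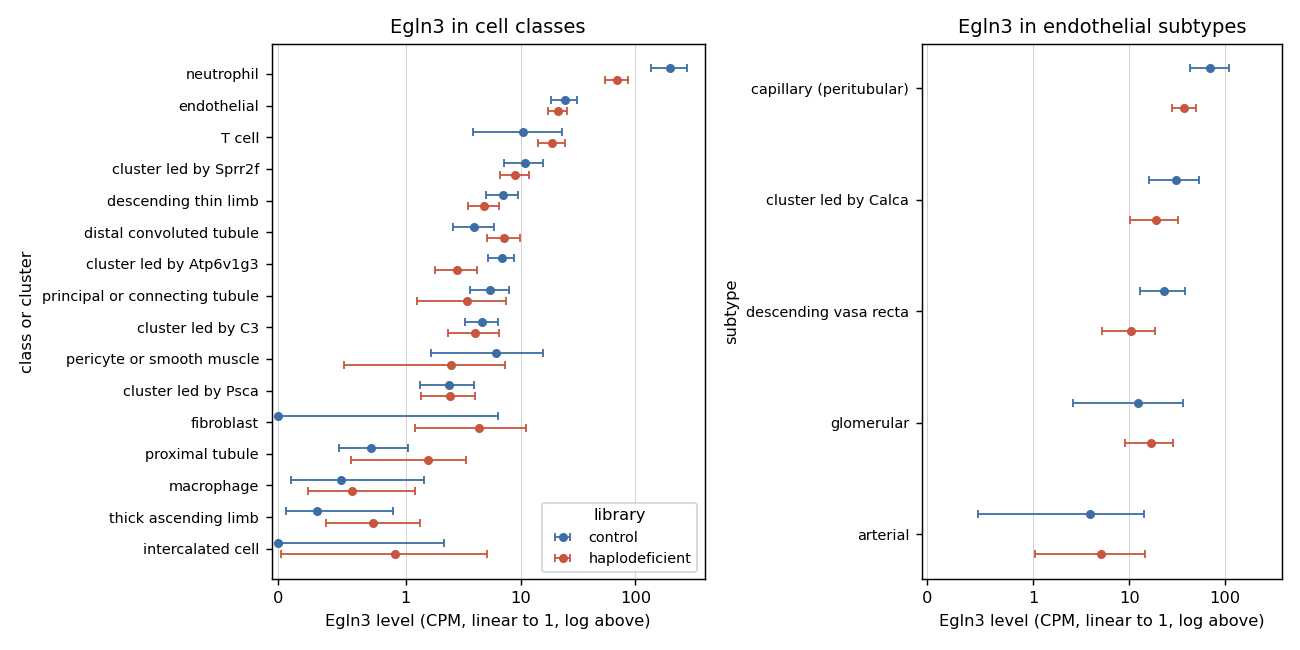
Egln3 level in CPM (horizontal axis, linear up to 1 and logarithmic above) in 16 classes and clusters (left) and 5 endothelial subtypes (right); points are the value of 1 library each (blue control, red haplodeficient) and bars 95% Poisson intervals for counting error. Neutrophil-like cells stand at 199.9 and 69.0 CPM, endothelial-like cells at 24.2 and 21.0 CPM, and among endothelial subtypes capillary-like cells are highest at 70.8 and 37.8 CPM.

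Egln1 (chr8:124908587-124949324, minus strand) encodes PHD2, the main oxygen sensor for HIF-1α. Its control level ran from 18.2 CPM in neutrophil-like cells (3 UMIs) and 23.8 CPM in macrophage-like cells to 61.7 CPM in T-cell-like cells. Pericyte or smooth muscle-like cells had 59.4 CPM (42.3 to 81.2) and 70.7 CPM (56.5 to 87.5), and endothelial-like cells 54.7 CPM (45.7 to 64.9) and 58.9 CPM (52.5 to 65.8). Macrophage-like cells, at 23.8 CPM (20.1 to 28.0) and 19.9 CPM (17.4 to 22.6), stood below endothelial-like cells in both libraries. The interval of the Egln1 ratio included 1 in all 16 classes, and in endothelial-like cells the ratio was 1.08 (0.874 to 1.33). With mitochondrial UMIs left out of the totals, 2 intervals lay below 1.

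Egln2 (chr7:27158658-27166802, minus strand) encodes PHD1. Its levels were between 18.2 and 42.1 CPM in the control and between 21.3 and 54.2 CPM in the haplodeficient library, the narrowest range of the 3 PHD genes in each library. Intercalated-like cells had the highest mean of both libraries, 38.2 CPM (29.5 to 48.7) and 54.2 CPM (41.3 to 69.9), and T-cell-like cells the lowest, 21.2 CPM (10.9 to 37.0) and 21.3 CPM (16.5 to 27.0). The gene overlaps Cyp2t4 on the other strand. Ratios were above 1 in 15 of 16 classes, with a median of 1.21, and 5 intervals lay above 1, those of proximal tubule, descending thin limb, thick ascending limb and distal convoluted tubule-like cells and of the Psca-led cluster. In proximal tubule-like cells the level was 31.8 CPM (30.0 to 33.6) and 42.1 CPM (35.9 to 49.1), a ratio of 1.33 (1.12 to 1.56). This class held 2977 control and 324 haplodeficient cells, 34.1% and 3.51% of each library. Kap-led clusters within it held 350 and 334 control but 5 and 7 haplodeficient cells, so its makeup differed between libraries. What part this makeup has in the proximal tubule ratios of any gene here was not tested. Mitochondrial genes took a median of 23.1% and 7.69% of UMIs in proximal tubule-like cells. Without mitochondrial UMIs in the totals the ratio there was 1.15 (0.967 to 1.35), ratios were above 1 in 13 classes, and 1 of 16 intervals lay above 1.

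In endothelial-like cells Egln2 was at 35.9 CPM (28.7 to 44.4) and 37.7 CPM (32.6 to 43.3), a ratio of 1.05 (0.810 to 1.37). Thinned to 1000 UMIs per cell that ratio became 0.580, from 16 of 335 and 21 of 758 cells with a UMI, and at 2000 UMIs the shares were 7.75% (4.92 to 11.5) and 7.49% (5.61 to 9.75). With equal subcluster weights the ratio was 0.976, so no direction was established for Egln2 in endothelial-like cells. By subtype, the ratio was 1.89 (0.907 to 4.55) in capillary-like and 0.544 (0.277 to 1.10) in glomerular-like cells, both past the 1.5-fold rule and both with intervals that include 1.

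Hif1an (chr19:44562850-44576274, plus strand) encodes FIH, the asparaginyl hydroxylase. Its level ran from 5.21 to 22.9 CPM in the control and from 4.39 to 19.1 CPM in the haplodeficient library, and macrophage-like cells were low in both, at 5.62 CPM (3.89 to 7.86) and 5.22 CPM (4.01 to 6.68). Thick ascending limb-like cells had 14.3 CPM (12.1 to 16.9) and 15.2 CPM (13.2 to 17.3), above macrophage-like cells in both libraries. Endothelial-like cells had 8.77 CPM (5.43 to 13.4, 21 UMIs) and 11.9 CPM (9.09 to 15.2, 62 UMIs), a ratio of 1.35 (0.812 to 2.33). All 11 eligible classes had a ratio interval that includes 1. Proximal tubule-like cells, under the required mean of 10 CPM at 8.17 CPM (7.28 to 9.14) and 5.17 CPM (3.16 to 7.98), had a ratio of 0.632 (0.381 to 0.994), and 0.546 (0.329 to 0.859) without mitochondrial UMIs.

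The makeup of PHD transcripts differed between cell types. Egln3 gave 21.1% (16.4 to 26.4) of the summed Egln1, Egln2 and Egln3 UMIs of control endothelial-like cells and 17.9% (14.9 to 21.1) of those of haplodeficient ones. In neutrophil-like cells it gave 84.6% (69.5 to 94.1) of 39 UMIs and 52.2% (44.1 to 60.3) of 157 UMIs, and in thick ascending limb-like cells 0.392% and 0.830%. Among the 5 compared endothelial subtypes the share ran from 4.26% and 5.26% in arterial-like to 38.5% (25.3 to 53.0) and 25.1% (19.1 to 31.9) in capillary-like cells. UMIs of different genes are captured with different efficiency, so these shares are read between cell types and not as protein proportions.

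Epas1 (chr17:86753700-86833410, plus strand) encodes HIF-2α, an alpha subunit well known from endothelium. The annotation places the unconfirmed transcript AC096777.1 over it on the same strand. Endothelial-like cells had 767 CPM (732 to 802, 1835 UMIs) in control and 595 CPM (574 to 616, 3111 UMIs) in haplodeficient cells. They held 43.7% and 56.5% of all Epas1 UMIs in cells. Pericyte or smooth muscle-like cells came next with 326 CPM (284 to 373) and 327 CPM (296 to 361), then fibroblast-like cells with 90.4 CPM (67.5 to 118) and 99.9 CPM (80.4 to 123). These first 3 were separated from each other in both libraries, while fibroblast-like and intercalated-like cells, at 72.3 CPM (60.1 to 86.2) and 41.3 CPM (30.1 to 55.3), overlapped in the control. Neutrophil-like cells had 0 UMIs in the control, which allows up to 18.2 CPM, and 1 in the haplodeficient library.

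The haplodeficient over control ratio of Epas1 in endothelial-like cells was 0.776 (0.732 to 0.822), short of the 1.5-fold rule. Arterial-like cells, the highest subtype for Epas1, were 56 of 362 control and 77 of 792 haplodeficient endothelial-like cells, and capillary-like cells, the lowest of the compared subtypes, were 85 and 272. With equal weight for each subcluster the ratio was 0.872. Thinned to 1000 UMIs, 45.1% (39.7 to 50.6) of endothelial-like cells had an Epas1 UMI in the control, beside 38.3% (34.8 to 41.8) in the haplodeficient library. Unthinned, 290 of 362 and 601 of 792 cells had one. Neutrophil-like cells, the lowest class for Epas1 and so not an independent background, had one in 0 of 96 and 0 of 572 at 1000 UMIs. The ratio of pericyte or smooth muscle-like cells was 1.00 (0.847 to 1.19). A further 3 classes were lower past the 1.5-fold rule on low counts. They were intercalated-like cells at 0.572 (0.397 to 0.811), distal convoluted tubule-like cells at 0.561 (0.401 to 0.778) and T-cell-like cells at 0.577 (0.345 to 1.01). Over 12 alternatives these calls were kept in 9, 4 and 8. Proximal tubule-like cells had a lower ratio still, 0.481 (0.308 to 0.719), from 499 and 25 UMIs at 13.4 and 6.46 CPM, with a mean just under the required 10 CPM. Without mitochondrial UMIs they were at 17.4 and 7.22 CPM, eligible and past the rule at 0.416 (0.267 to 0.622). How many of all genes passed the rule under that scaling was not counted. Summed over all cells regardless of class, however, Epas1 was 39.3 CPM in control and 58.8 CPM in haplodeficient cells, a ratio of 1.5 (1.44 to 1.56), in the opposite direction to its value within endothelial-like cells. Free RNA gave 24.4 CPM and 50 CPM of Epas1.

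Epas1 was highest in arterial-like cells, with 1243 CPM (1148 to 1344) and 1000 CPM (922 to 1084), and lowest of the 5 compared subtypes in capillary-like cells, with 443 CPM (368 to 527) and 373 CPM (340 to 408). Arterial-like cells were separated from every other compared subtype in both libraries. The ratio was 0.805 (0.718 to 0.902) in arterial-like, 0.779 (0.689 to 0.881) in vasa recta-like, 0.840 (0.717 to 0.985) in Calca-led and 0.842 (0.690 to 1.03) in capillary-like cells. Glomerular-like cells, at 628 CPM (532 to 737) and 669 CPM (613 to 730), had a ratio of 1.07 (0.887 to 1.29). In the 4 subtypes with a ratio under 1, 3 intervals lay below 1.

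Hif1a (chr12:73901375-73947530, plus strand) encodes HIF-1α. The annotation places an antisense gene, Gm15283, and a protein-coding gene on the same strand, Gm49321, over it, so some of its UMIs could have been left out or assigned there. It was measured in every class. The highest levels were in neutrophil-like cells, 254 CPM (183 to 344) and 204 CPM (179 to 231), pericyte or smooth muscle-like cells, 218 CPM (184 to 257) and 236 CPM (210 to 265), principal or connecting tubule-like cells, 252 CPM (239 to 266) and 191 CPM (171 to 212), and T-cell-like cells, 228 CPM (190 to 270) and 195 CPM (180 to 211). Each of these 4 classes overlapped its neighbour in that order in 1 library or both. The lowest mean was that of the C3-led cluster, which also has the injury marker Havcr1 among its leading genes, at 55.6 CPM (50.6 to 60.9) and 54.8 CPM (48.0 to 62.3). Proximal tubule-like cells were at 59.0 CPM (56.6 to 61.6) and 76.5 CPM (68.0 to 85.7), and fibroblast-like cells at 85.2 CPM (63.0 to 113) and 56.0 CPM (41.7 to 73.6), so that the next place in the order differed between libraries.

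Hif1a was lower in the haplodeficient library in 13 of 16 classes, and 10 of those intervals lay below 1. A matching share of intervals among all genes was not counted. By CPM over all UMIs, 0 classes reached the 1.5-fold rule, and without mitochondrial UMIs in the totals thick ascending limb-like cells at 0.602 and fibroblast-like cells at 0.637 did. Under that scaling the share of all genes past the rule was not counted. The sum of Hif1a over all cells gave 115 CPM for control and 120.3 CPM for haplodeficient cells. Their ratio, 1.05 (1.02 to 1.07), had the opposite direction to most classes. In thick ascending limb-like cells it was at 151 CPM (143 to 159) and 101 CPM (96.4 to 107), a ratio of 0.673 (0.626 to 0.724). Principal or connecting tubule-like cells had a ratio of 0.758 (0.671 to 0.855) and endothelial-like cells, at 164 CPM (148 to 181) and 139 CPM (129 to 150), one of 0.847 (0.748 to 0.960). The exception with an interval above 1 was the proximal tubule-like class at 1.29 (1.14 to 1.46). The median of all eligible genes there was itself shifted by 0.21 on the log2 scale, the largest shift of any class. Without mitochondrial UMIs in the totals the proximal tubule ratio was 1.12 (0.988 to 1.26), while 13 of 16 ratios remained below 1 and 10 intervals below 1.

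**Figure D3:**
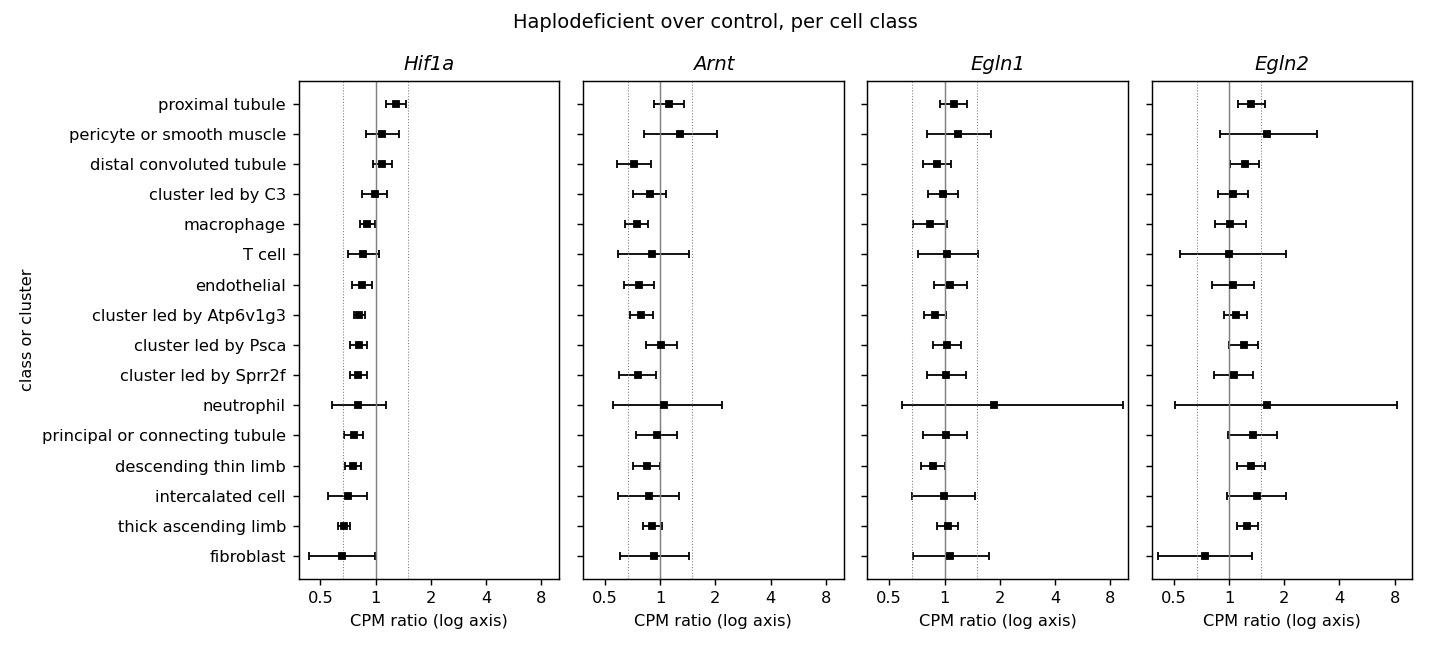
Ratio of CPM, haplodeficient over control (horizontal axis, logarithmic), for Hif1a, Arnt, Egln1 and Egln2 in 16 classes and clusters ordered by the Hif1a ratio; bars are 95% exact binomial intervals for counting error, the solid line marks 1 and dotted lines 1.5-fold. Hif1a lies below 1 in 13 classes and Arnt in 12, Egln1 intervals all cross 1, and Egln2 lies above 1 in 15.

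Within the endothelium, Hif1a followed another order than Epas1. Descending vasa recta-like cells had the highest level of the 5 compared subtypes, 344 CPM (300 to 393) and 323 CPM (290 to 359), and were separated from the other 4 in both libraries. Capillary-like cells had 138 CPM (98.2 to 189) and 99.2 CPM (82.7 to 118). Arterial-like cells, the highest for Epas1, had 53.1 CPM (35.0 to 77.3) and 80.8 CPM (59.6 to 107), and glomerular-like cells 45.8 CPM (22.9 to 81.9) and 64.0 CPM (47.3 to 84.5). A venular-like cluster with Selp and Sele among its leading genes, of 20 and 37 cells, had 284 CPM (195 to 398) and 204 CPM (147 to 275). The ratio interval of Hif1a included 1 in each of the 5 compared subtypes. Ratios were 1.52 in arterial-like, 1.40 in glomerular-like and 1.10 in Calca-led cells, and 0.938 in vasa recta-like and 0.719 in capillary-like cells. Vasa recta-like cells were 90 of 362 control and 158 of 792 haplodeficient endothelial-like cells. The ratio of the whole endothelial-like class was 0.884 with equal subcluster weights and 0.690 without doublet removal.

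The split between the alpha subunits differed more between vessels than between libraries. Epas1 gave 82.4% (80.7 to 83.9) of the summed Epas1 and Hif1a UMIs of endothelial-like cells in control and 81.1% (79.8 to 82.3) in haplodeficient cells. The share was 95.9% (94.1 to 97.3) and 92.5% (90.2 to 94.4) in arterial-like, 93.2% (88.2 to 96.6) and 91.3% (88.6 to 93.5) in glomerular-like, 76.2% (69.0 to 82.5) and 79.0% (75.5 to 82.2) in capillary-like, and 67.9% (64.2 to 71.3) and 63.7% (60.5 to 66.8) in vasa recta-like cells. The share in vasa recta-like cells was below that in arterial-like and glomerular-like cells in both libraries, while arterial-like and glomerular-like cells overlapped. Pericyte or smooth muscle-like cells were at 59.9% (54.7 to 65.1) and 58.1% (54.2 to 61.8). Proximal tubule-like cells were at 18.5% (17.1 to 20) and 7.79% (5.10 to 11.3), where free RNA was estimated to supply 4.71% and 16.1% of the Epas1 UMIs.

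**Figure D4:**
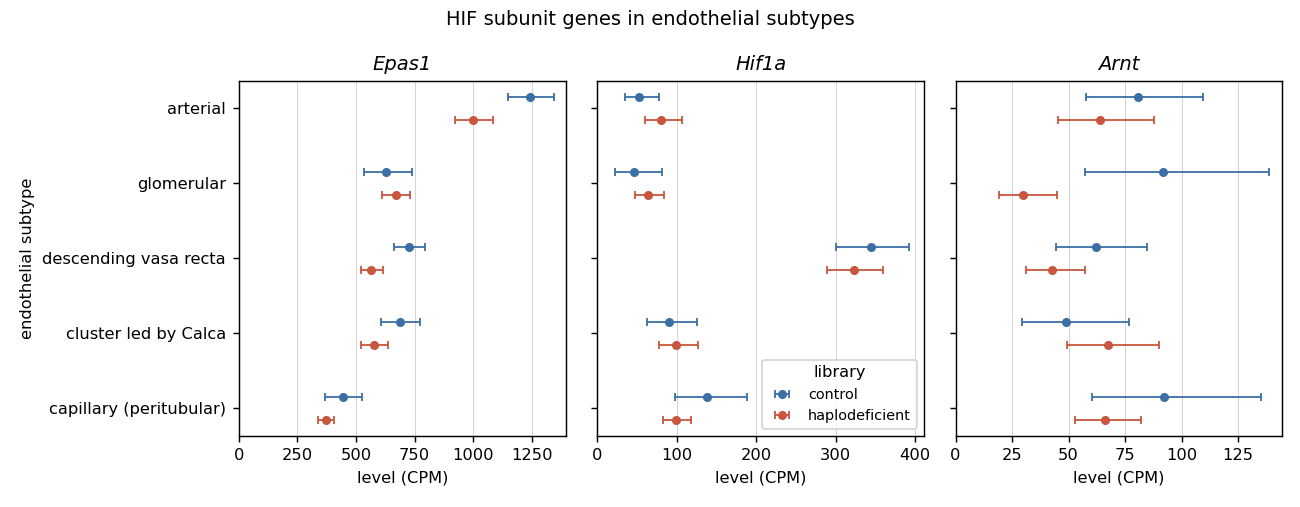
Level in CPM (horizontal axes, starting at 0) of Epas1, Hif1a and Arnt in 5 endothelial subtypes; points are 1 library each (blue control, red haplodeficient) and bars 95% Poisson intervals for counting error. Epas1 is highest in arterial-like cells (1243 and 1000 CPM), Hif1a in descending vasa recta-like cells (344 and 323 CPM), and the libraries part for Arnt in glomerular-like cells (91.5 and 30.0 CPM).

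Hif3a (chr7:17031507-17062427, minus strand) encodes HIF-3α, whose isoforms include inhibitors of the other HIFs, and it was nearly absent. It had 40 UMIs over all control and 72 over all haplodeficient cells and was eligible in 0 of 16 classes. Pericyte or smooth muscle-like cells had 6 UMIs (9.14 CPM, 3.36 to 19.9) and 8 UMIs (6.66 CPM, 2.87 to 13.1), fibroblast-like cells 0 and 10 UMIs, and descending thin limb-like cells 1 and 15 UMIs. The Tm4sf1-led cluster with endothelial and pericyte genes had 8 and 15 UMIs, at 10.7 and 10.5 CPM. Endothelial-like cells had 0 and 4 UMIs, and the 4 lay in vasa recta-like cells.

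Arnt (chr3:95434388-95497240, plus strand) encodes HIF-1β, the shared partner of the alpha subunits. A processed pseudogene, Gm42672, lies over it on the same strand. Arnt was present in all classes, between 30.1 and 71.9 CPM in the control and between 28.2 and 69.8 CPM in the haplodeficient library. Endothelial-like cells had the highest control level, 71.9 CPM (61.5 to 83.4), and 55.1 CPM (48.9 to 61.8) in the haplodeficient library, a ratio of 0.766 (0.632 to 0.931). Neutrophil-like cells had 66.6 CPM (33.3 to 119) and 69.8 CPM (55.6 to 86.6), which overlaps with endothelial-like cells in both. Ratios were below 1 in 12 of 16 classes and 5 intervals lay below 1, including macrophage-like cells at 0.744 (0.643 to 0.861) and distal convoluted tubule-like cells at 0.723 (0.586 to 0.889). Clustering each library on its own left ratios below 1 in 7 of 12 classes.

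The largest Arnt difference in a vessel was in glomerular-like endothelial cells. These had 91.5 CPM (57.4 to 139) in 29 control cells, from 22 UMIs in 12 cells, and 30.0 CPM (19.0 to 45) in 78 haplodeficient cells, from 23 UMIs in 14 cells. The ratio was 0.328 (0.175 to 0.617), past the 1.5-fold rule, which 7.52% of eligible genes met in the lower direction in this subtype and 21.4% in either. Thinned to 1000 UMIs, the share was 11.1% (2.35 to 29.2) of 27 and 2.70% (0.329 to 9.42) of 74 cells, so the intervals overlap at that depth. The Calca-led cells had a ratio of 1.38 (0.791 to 2.49), and the arterial, capillary and vasa recta-like cells ratios of 0.689 to 0.794 with intervals that include 1.

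Vhl (chr6:113623959-113631633, plus strand) was low and even. Its level lay between 7.02 and 18.2 CPM in the control and between 8.15 and 17.8 CPM in the haplodeficient library, and its order of classes was not kept between them. Endothelial-like cells had 10.0 CPM (6.42 to 14.9, 24 UMIs) and 9.94 CPM (7.42 to 13, 52 UMIs), a ratio of 0.992 (0.6 to 1.68). T-cell-like cells, at 8.82 CPM (2.86 to 20.6, 5 UMIs) and 17.8 CPM (13.5 to 23.1, 57 UMIs), had a ratio of 2.02 (0.818 to 6.47), past the 1.5-fold rule on 5 control UMIs.

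Counted over the endothelial-like class, 7 of the 9 genes were eligible, which asked for a mean of 10 CPM or more and 30 or more UMIs in both libraries together. Of these 7, 0 were higher and 0 lower by 1.5-fold, where 6.21% of 9148 eligible genes were past it in either direction, 2.46% higher and 3.75% lower. With cells thinned to 1000 UMIs, a count added after the data were seen, Arnt (0.649) and Egln2 (0.580) were past it. For thinned cells the share of all eligible genes past the rule was not counted. Of the 7, 3 genes, Epas1, Hif1a and Arnt, had ratio intervals below 1. For Hif1a this held for the class as a whole, while each compared subtype had an interval that includes 1. The 4 hydroxylase genes had intervals that include 1. Among all eligible genes the share with an interval below 1 was not counted, so this is not read as particular to these genes.

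**Figure D5:**
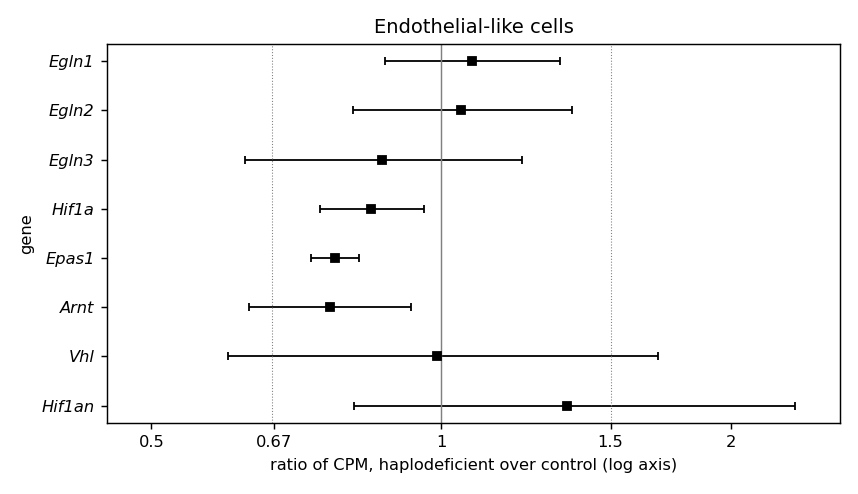
Ratio of CPM, haplodeficient over control (horizontal axis, logarithmic), for 8 genes in endothelial-like cells; squares are the ratio and bars 95% exact binomial intervals for counting error, the solid line marks 1 and dotted lines 1.5-fold, and Hif3a is left out because it had 0 control UMIs. Epas1 (0.776), Arnt (0.766) and Hif1a (0.847) lie below 1 with their intervals, and the Egln3 interval runs from 0.626 to 1.21.

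Over all 16 classes, 96 of the 144 pairs of gene and class were eligible, and 4 were higher and 4 lower by 1.5-fold. The higher ones were Egln1 in neutrophil-like cells at 1.85 (0.590 to 9.36, 3 control UMIs), Egln2 in pericyte or smooth muscle-like cells at 1.60 (0.893 to 3.03), and Egln3 and Vhl in T-cell-like cells, and each of their intervals includes 1. Without doublet removal the Egln1 and Egln2 ratios were 1.02 and 1.04, and both calls were lost. The lower ones were Egln3 in neutrophil-like cells and Epas1 in intercalated, distal convoluted tubule and T-cell-like cells. Among all eligible genes, the share past the rule in either direction was 32.9% in neutrophil-like, 18.9% in T-cell-like, 16.3% in intercalated-like, 14.4% in pericyte or smooth muscle-like and 7.47% in distal convoluted tubule-like cells. In the direction of the calls it was 18.5% higher and 14.3% lower in neutrophil-like cells, 6.51% higher and 12.4% lower in T-cell-like cells, 7.85% higher in pericyte or smooth muscle-like cells, and 7.6% and 3.28% lower in intercalated-like and distal convoluted tubule-like cells. In the classes with 0 members past the rule it was 18.9% in fibroblast-like, 13% in principal or connecting tubule-like, 12.4% in proximal tubule-like, 9.78% in thick ascending limb-like, 6.36% in descending thin limb-like and 4.95% in macrophage-like cells, and 7.69%, 5.98%, 5.84% and 5.27% in the Psca-, C3-, Atp6v1g3- and Sprr2f-led clusters. In the 5 endothelial subtypes, 26 of 45 pairs were eligible, with 1 higher and 3 lower. There the share of all eligible genes past the rule was 21.6% in capillary-like, 21.4% in glomerular-like, 18.4% in vasa recta-like, 18.0% in arterial-like and 17.8% in Calca-led cells, with 11.8% higher in capillary-like cells.

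The rest of the pathway in endothelial-like cells was described by 4 gene lists. Of the other VHL ligase genes, the HIF partners and regulators, the other oxygen- and 2-oxoglutarate-dependent hydroxylases and demethylases, and the HIF target genes, 5 of 5, 11 of 13, 15 of 16 and 17 of 20 were eligible, and in each list 0 were higher and 0 lower by 1.5-fold. Median log2 ratios were 0.23, 0.11, -0.17 and -0.20, beside 0.00 over all eligible genes. The genes named next were picked after their values were seen. Elob, which encodes an elongin of the VHL ligase, had 401 and 567 CPM and a ratio of 1.41 (1.31 to 1.52). Among targets, the mitochondrial protein gene Higd1a had a ratio of 1.48 (1.25 to 1.75) and Ddit4, an mTORC1 inhibitor, one of 0.694 (0.607 to 0.795). P4ha1, the collagen prolyl 4-hydroxylase subunit that stands in both the hydroxylase and the target list, had one of 0.680 (0.580 to 0.799).

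Over the 16 classes, the VHL ligase list had a median above 0 in all 16, with 6 higher and 0 lower among 79 eligible pairs. Over all genes, 5.35% of 132156 eligible pairs of gene and class were higher and 5.42% lower. HIF target genes had a median below 0 in 11 of 16 classes, with 4 higher and 20 lower among 247 pairs, and the medians ranged from -0.20 to 0.09. The hydroxylase and demethylase list had a median below 0 in 13 of 16, with 5 higher and 8 lower among 213 pairs. Partners and regulators had one above 0 in 11 of 16, with 4 higher and 5 lower among 181 pairs. These medians are set against 0 and not against all genes. The median of all eligible genes ran from -0.08 in T-cell-like to 0.21 in proximal tubule-like cells. In T-cell-like cells the target median of -0.0045 was below 0 but above that of all genes. Ndrg1, a target chosen after its values were seen, was lower in 15 of 16 classes with every one of those 15 intervals below 1, while Ldha, a target chosen in the same way, was higher in 16 of 16 with 11 intervals above 1. The target list therefore did not move as 1 block. All list counts, medians and ratios, also those in endothelial-like cells, used all UMIs and were not recomputed without mitochondrial UMIs. Median mitochondrial shares were higher in the control, at 16.4% and 4.57% in thick ascending limb-like cells. They were 10.1% and 6.02% in intercalated-like cells, which held 3 of the 6 higher VHL ligase pairs. The part of this share in the list values was not tested. In neutrophil-like cells, where Egln3 differed most, 2 of 14 eligible targets were higher and 3 lower, beside 18.5% and 14.3% of all eligible genes.

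Genes whose levels followed a member most closely were found by Pearson correlation of log2(CPM + 5) over 32 values, 16 classes in 2 libraries, among 10108 genes. For Epas1 these were Gnb4 (0.917), Npr1 (0.901) and Lrrc32 (0.885), and for Egln3 they were Sh2d3c (0.901), E230032D23Rik (0.867) and Slfn4 (0.852). Hif1a was followed by Mef2d (0.836), Stk24 (0.808) and Rapgef6 (0.788), and Arnt by Sipa1l2 (0.826), Bcor (0.781) and Ksr1 (0.776). Egln1 had Ctdspl2 (0.891), Mosmo (0.867) and 4921524J17Rik (0.862), and Egln2 had Tm2d1 (0.847), Smim7 (0.844) and Bsg (0.844). Hif1an had Ppp4r3a (0.811), Taf15 (0.790) and Hip1r (0.779), and Vhl, with the lowest values, had Ifngr2 (0.719), Tbpl1 (0.710) and Fgfr1op2 (0.705). The 32 values share 2 libraries, so these are descriptions of likeness in level only.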

How the data were processed

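Droplet single-cell 3′ RNA libraries of kidney, 1 control and 1 haplodeficient, were analysed from the deposited counts. These are raw UMI counts for every barcode, unfiltered. They carry the mark of Cell Ranger version 4, per the file headers, and build mm10, per the submitters' processing notes. Gene identifiers matched GENCODE M21 (GRCm38) for 32235 of 32285.

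Barcodes with at least 500 UMIs, 200 genes and at most 50% mitochondrial UMIs were kept, and 715 control and 804 haplodeficient likely doublets, ranked by Scrublet in scanpy 1.11.5 and cut at 0.8% per 1000 cells, were removed. Cells of both libraries were clustered together (2000 variable genes, 30 components, 15 neighbours, Leiden resolution 1, leidenalg 0.10.2), giving 43 clusters, and endothelial-like cells again (20 components, resolution 0.5), giving 7. The 9 genes were kept out of the variable genes and the marker lists. A name required 3 or more markers in at least 10% of cells at 2-fold, and this scoring rule was chosen with the data in view. Barcodes of 1 to 100 UMIs gave the free RNA profile, and doublets of like cells remain.

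UMIs were summed per class and library and expressed as CPM. Levels have exact Poisson, ratios exact conditional binomial and shares Clopper-Pearson intervals at 95%, for counting error only. The limit printed for a count of 0 is 3 counts. Classes needed 100 cells and subtypes 25 in each library. Past the fold means log2(CPM + 5) differing by at least 1.5-fold, in genes with a mean of 10 CPM and 30 UMIs. The ratio code was tested on simulated counts. Named were the 9 genes in every class, for each the 3 genes most like it in level (those of Hif3a are not reported here), and any listed gene past the fold in endothelial-like cells, of which there were 0. Other listed genes and clusters named in the text were picked after their values were seen. The genes and lists were chosen with earlier results of these data known.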

Additional observations from a re-analysis of the deposited data

Results flagged for a closer look

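Hif1a had ratios with intervals on opposite sides of 1 in different cell types, 1.29 in proximal tubule-like cells and, at the other end, 0.657 (0.435 to 0.993) in fibroblast-like cells. Egln3 did so too, with 1.81 in distal convoluted tubule-like and 0.345 in neutrophil-like cells. Without mitochondrial UMIs in the totals the proximal tubule Hif1a ratio was 1.12 (0.988 to 1.26) and the distal convoluted tubule Egln3 ratio 1.68 (0.986 to 2.90), so both intervals then include 1 and neither gene has intervals on opposite sides for these pairs of classes. These are differences between the responses of 2 cell types with 1 library per group, and they were not tested.

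Barcodes of 1 to 100 UMIs, which hold free RNA and enter no comparison of cells, had more Epas1 in the haplodeficient library, 50 CPM against 24.4 CPM, a ratio of 2.05 (1.68 to 2.52). Egln2 was at 45.1 CPM against 31.7 CPM in them, a ratio of 1.42 (1.18 to 1.72).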

How the results depend on the processing

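No paired analysis was possible because each group had 1 library. The Egln3 ratio in endothelial-like cells stayed between 0.719 and 0.869 under 11 of 12 alternatives and was 0.486 with cells thinned to 1000 UMIs. Members past the fold there numbered 0 under 13 alternatives and 2, Arnt and Egln2, with cells thinned to 1000 UMIs. No share of all genes past the fold was counted for the thinned cells. Gene and class pairs past the fold numbered 8, and 4 without doublet removal (Egln1 in neutrophil-like, Egln2 in pericyte or smooth muscle-like, and Epas1 in T-cell-like and distal convoluted tubule-like cells were lost), 1 by a 2-fold rule and 2 with eligibility at 50 CPM. The highest class was the same for 9 genes by definition, for 5 with a minimum of 1000 UMIs, for 5 with each cell named alone and for 2 with cells thinned. With 96 control cells, neutrophil-like cells left the comparison both with the minimum of 1000 UMIs and with thinning. Egln3, Hif1a, Arnt and Vhl, highest in neutrophil-like cells in the main setting, changed class in both. With thinning, Egln1, Egln2 and Hif1an, which were highest in other classes, changed as well. The highest endothelial subtype was the same for 5 of 8 genes without doublet removal and for 4 with a minimum of 1000 UMIs, where 2 and 3 of the 4 named subtypes could be compared. The number of genes with a lower thinned share was 6 at both 1000 and 2000 UMIs, but Egln1 was lower only at 2000 and Hif1an only at 1000. Of 256 alternative values 240 stayed within the counting interval of the reported ratio or within 1.5 times the reported count, and 16 moved. No ratio past the fold changed direction, but 9 of 189 alternative ratios lay on the other side of 1 from the reported value, all of them Egln1, Egln2, Hif1an or Vhl in endothelial-like cells. The scaling without mitochondrial UMIs, the one without the Magi2-led subcluster and the thinned count of members past the fold were added after the data were seen. Epas1 in endothelial-like cells ranged from 0.741 to 0.872 and Egln3 in neutrophil-like cells from 0.334 to 0.378. Causes were not tested beyond those stated, and counts under 20 UMIs limit most subtype values.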

Other observations

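Dendritic-like and monocyte-like cells were too few to enter the comparisons. Dendritic-like cells, 55 in each library, had 0 Epas1 and 0 Egln3 UMIs in both, Hif1a at 108 CPM (80.9 to 141) and 142 CPM (113 to 176), and Vhl at 27.9 CPM (15.3 to 46.9) and 29.4 CPM (17.1 to 47.0). Their Arnt was at 83.8 CPM (60.4 to 113) and 48.4 CPM (32.1 to 69.9). Monocyte-like cells, 53 and 368, had Arnt at 87.4 CPM (54.1 to 134) and 84.5 CPM (71.7 to 99.0) and Hif1a at 154 CPM (108 to 212) and 131 CPM (115 to 148).

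Macrophage-like clusters differed in Epas1. A cluster led by Fabp5 with Gpnmb and Trem2, of 156 and 405 cells, had 22.4 CPM (41 UMIs) and 25.7 CPM (136 UMIs), and one led by Retnla had 5.95 CPM (8 UMIs) and 0.959 CPM (2 UMIs). The Il17a- and Trdc-led T-cell-like cluster had Epas1 at 112 CPM (55.6 to 199) and 82.6 CPM (56.1 to 117), against 0 and 5.48 CPM (2.01 to 11.9) in the Ccl5- and Nkg7-led one.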
